A study of Mus musculus with 31 samples.

Results

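The comparison described here is of male mice that lacked MuRF1 (genotype MuRF1 -/-) with male wild-type mice, both on a high-fat diet, in the gastrocnemius, a calf muscle. A library was placed in the group whose title carries the animal number found in the library's own description, which gave 3 knockout libraries (animals 2510, 2511 and 2517, replicates 1, 2 and 3) and 4 wild-type libraries (animals 2452, 2453, 2464 and 2515, replicates 1 to 4), 7 of the 31 libraries of the series. Per the labels' protocols, all mice ate chow after weaning, these 7 were moved at 8 weeks of age to a diet with 45% fat of lard origin, and muscle was collected at 30 weeks. The remaining groups, used below only where a difference is set beside another diet or sex, were male knockout and wild type on chow (4 and 4), female knockout and wild type on the same high-fat diet (3 and 4), and female knockout and wild type on chow (4 and 4). The strain, and how the MuRF1 -/- allele was made, were not given in the sources used here. The labels give each library another animal number, so libraries were taken as separate animals, and p-values measure the spread between these animals.

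MuRF1, the product of Trim63, is a RING-type ubiquitin ligase of striated muscle that sits at the M-band and Z-disc of the sarcomere. It tags proteins of the contractile apparatus for breakdown by the proteasome. Its mRNA rises in wasting muscle under the control of FoxO factors and the glucocorticoid receptor, and mice without it are known to keep more muscle after denervation.

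All 3 knockout libraries were deeper than all 4 wild-type libraries. Total counts were 13301222 to 14919379 in the knockout libraries and 9342028 to 12420772 in the wild-type libraries, so that 3 counts, taken as the floor, stood for 0.201 to 0.226 CPM (a count scaled to the library's total) in knockouts and 0.242 to 0.321 CPM in wild types. Mitochondrially encoded genes held 12.6% to 13.5% of the counts in knockouts and 9.41% to 13.5% in wild types. Skeletal muscle genes were high in all 7 libraries, which does not tell the gastrocnemius from other skeletal muscles. The skeletal actin gene Acta1 was at 26486 to 28579 CPM in knockouts and 26178 to 37734 CPM in wild types, the creatine kinase gene Ckm at 10924 to 12026 CPM and 10493 to 14259 CPM, and the fast myosin gene Myh4 at 59549 to 64898 CPM and 45876 to 70307 CPM, knockouts first in each pair. The record that holds the library of animal 2517 (knockout 3) has the title of a female wild-type chow mouse. That library had 34.1 CPM of the Y-linked gene Ddx3y, the lowest of the 7 libraries (34.1 to 54.5 CPM), and 25 counts of Trim63. Its 16 counts of the female-expressed gene Xist (1.15 unscaled CPM) were the most of the 7, where the female libraries had 67.7 to 270.9 unscaled CPM. The numbers in titles and descriptions differ in 19 of the 31 records, so results without knockout 3 are given where they differ.

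Trim63 itself was nearly absent from the knockout libraries. The gene (ENSMUSG00000028834, chromosome 4, 134315120 to 134329629 of mm10, plus strand) had 1.09, 0.487 and 1.83 CPM in knockouts 1, 2 and 3, against 222.3, 220.8, 264.3 and 241.3 CPM in wild types 1 to 4. All 3 knockout libraries lay far below all 4 wild-type libraries. The log2 fold change, knockout over wild type, was -7.71 ± 0.56 (SE), a 208.7-fold lower level, with an adjusted p of 1.55e-08 by the quasi-likelihood test of edgeR with Benjamini-Hochberg adjustment over 14024 genes. Here and below a CPM of one library is scaled by TMM, a value after ± is the standard error of a log2 fold change or the SD of a mean, and a gene is called where its adjusted p is under 0.05.

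Few genes were called for the genotype difference on high fat, with 3 knockout against 4 wild-type libraries. Of 14024 genes tested, 37 were called, a share of 0.264%. In knockouts 15 genes rose (0.107%) and 22 fell (0.157%), Trim63 among those that fell, and 25 of the 37 changed at least 2-fold. The 3 knockout and 4 wild-type values did not overlap for any of the 37 genes, where over all genes tested every knockout value lay above every wild-type value for 761 genes (5.43%) and below for 745 (5.31%). At an unadjusted p under 0.05, 662 genes were higher (4.72%) and 724 lower (5.16%). The median log2 fold change of all tested genes was -0.00. Leaving out 1 library moved the count of called genes. It was 22 without knockout 3 (19 of them among the 37), 20 without knockout 2 (18), 22 without wild type 2 (22), 16 without wild type 3 (16) and 68 without wild type 4 (34).

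**Figure D1:**
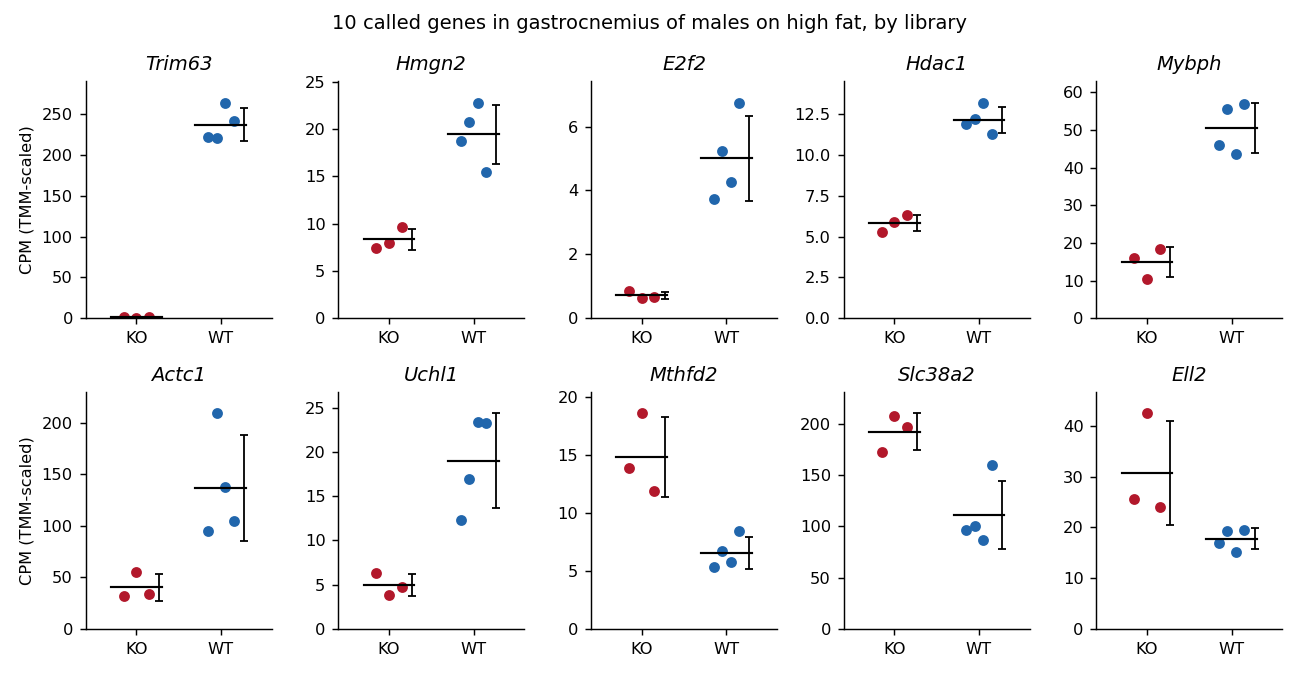
CPM (TMM-scaled, linear axis from 0) of 10 called genes in the 3 knockout (KO, red) and 4 wild-type (WT, blue) libraries of males on high fat; points are libraries, the horizontal line is the mean and the whisker 1 SD. Trim63 stands at 0.487 to 1.83 CPM in KO and 220.8 to 264.3 CPM in WT, and no gene of the plot has overlapping groups.

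Most of the called genes were neighbours of Trim63. On chromosome 4, 22 of the 490 genes tested within 25 Mb of Trim63 were called (4.49%), 6 higher and 16 lower in knockouts. Outside this window 15 of 13534 genes were called (0.111%), 9 higher and 6 lower. Setting Trim63 aside, the called genes closer than 2 Mb numbered 5 among 80 tested (6.25%). Between 2 and 10 Mb they numbered 3 among 166 (1.81%), and between 10 and 25 Mb 13 among 243 (5.35%). Farther out on the chromosome 0 genes among 379 were called, and the remaining chromosomes held 15 calls among 13155 genes (0.114%). Neighbouring genes are not independent of each other, and whether these genes differ through the loss of MuRF1 or through the chromosome segment that the deleted allele lies on cannot be told apart in this design.

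**Figure D2:**
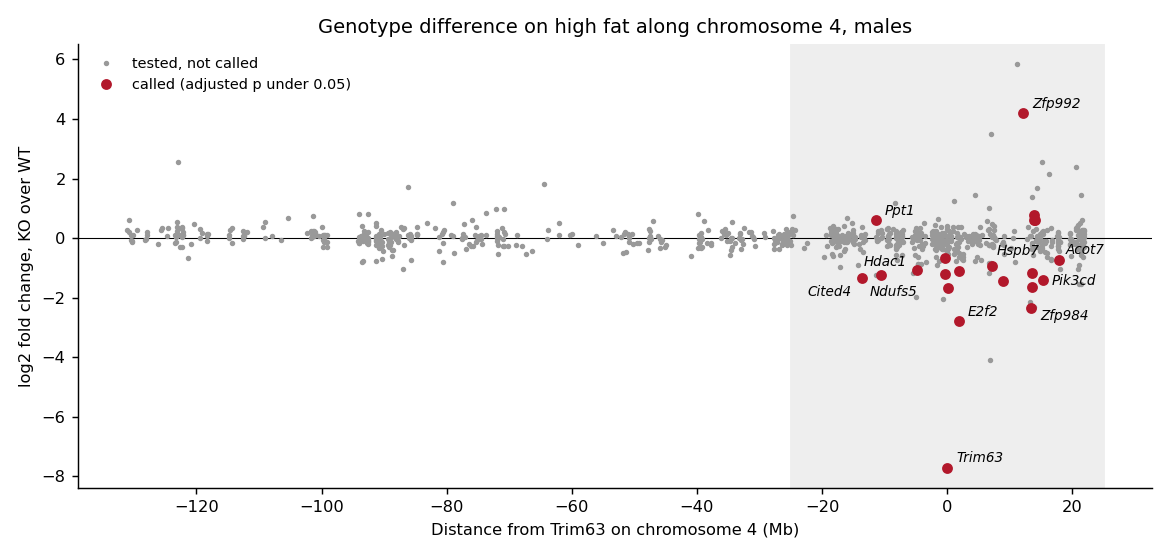
Log2 fold change of KO over WT in males on high fat for each tested gene of chromosome 4, by its distance from Trim63 in Mb (the grey band spans 25 Mb on each side); red points are called genes, grey points are not called. Called genes lie in the band only, with Trim63 at -7.71 and Zfp992 at 4.19; Zfp993, with no wild-type count, is left out since its fold has no fixed size.

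Among the neighbours that fell were genes of chromatin and transcription. Hmgn2 (chromosome 4, 133964738 to 133968650), a nucleosome-binding high-mobility-group protein, had 7.45, 8.00 and 9.60 CPM in knockouts and 18.7, 20.8, 22.8 and 15.5 CPM in wild types (-1.22 ± 0.15, adjusted p = 4.62e-05). The cell-cycle transcription factor gene E2f2 (136172394 to 136196057) had 0.853, 0.626 and 0.659 CPM in knockouts and 3.74, 5.25, 4.26 and 6.75 CPM in wild types (-2.80 ± 0.37, adjusted p = 8.2e-05). Hdac1, a class I histone deacetylase whose gene lies 4.77 Mb before Trim63, had 5.28, 5.91 and 6.30 CPM in knockouts and 11.9, 12.2, 13.2 and 11.3 CPM in wild types (-1.06 ± 0.15, adjusted p = 0.000147). In each of the 3 the lowest wild-type library stood well clear of the highest knockout library. Zfp46, a zinc-finger gene, fell by 1.11 ± 0.18 on the log2 scale, and the zinc-finger gene Zfp984 by 2.33 ± 0.49 at a level of 2.00 to 3.18 CPM in wild types. Cited4, a transcriptional coactivator, had 6.52, 7.65 and 6.67 CPM in knockouts and 11.7, 11.7, 21.0 and 25.9 CPM in wild types (-1.34 ± 0.27). These 3 calls differ in how firm they are: Zfp46 was called in each of the 7 fits that left out 1 library, Cited4 in 2 and Zfp984 in 1.

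Other neighbours that fell have roles at the membrane, in signalling or in lipid metabolism. Paqr7, a membrane progestin receptor, had 2.33, 2.43 and 4.25 CPM in knockouts and 8.67, 11.0, 9.90 and 9.17 CPM in wild types (-1.68 ± 0.23, adjusted p = 0.000147). Pik3cd, the delta catalytic subunit of phosphoinositide 3-kinase known from leukocytes, had 8.61, 8.34 and 8.35 CPM in knockouts and 24.0, 23.7, 20.6 and 20.8 CPM in wild types (-1.40 ± 0.23, adjusted p = 0.00157). The groups of both genes were apart, and for Paqr7 knockout 3 was the highest of its group, with a value of -2.02 without it. Podoplanin (Pdpn), a mucin-like protein of lymphatic endothelium and fibroblasts, fell by 1.43 ± 0.29 at 1.25 to 1.71 CPM in knockouts and 3.08 to 4.73 CPM in wild types. The acyl-CoA thioesterase gene Acot7 fell by 0.73 ± 0.15, and Dhdds, a gene of dolichol synthesis 378 bases from Hmgn2, by 0.67 ± 0.15. Miip, an inhibitor of cell migration, fell by 1.17 ± 0.19, and Fv1, a mouse retrovirus restriction gene 163 bases from it on the other strand, by 1.63 ± 0.31. Of these 7 genes, Paqr7, Pik3cd and Miip stayed called in every fit that left out 1 library. Fv1 lost its call without knockout 2 (adjusted p = 0.0804), and Pdpn, Acot7 and Dhdds lost theirs without any of 4, 4 and 5 libraries, with adjusted p up to 0.142, 0.142 and 0.154.

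Hspb7, a small heat-shock protein of heart and skeletal muscle that binds filamin, fell as well. It had 258.3, 206.0 and 282.7 CPM in knockouts and 536.9, 410.5, 589.7 and 352.0 CPM in wild types (-0.92 ± 0.18, adjusted p = 0.00952). The knockout libraries were all under the lowest wild-type library, though the wild types spread over 109.9 CPM (SD). Without wild type 3 or knockout 2 it was -0.81 or -0.80 and not called, with adjusted p up to 0.146. The gene lies 7.09 Mb from Trim63.

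Of the called neighbours, 6 rose. Fbxo6, an F-box protein that recognises glycoproteins for ubiquitination, had 45.0, 49.3 and 45.4 CPM in knockouts and 27.5, 25.1, 38.0 and 30.8 CPM in wild types (0.62 ± 0.12, adjusted p = 0.0107). Mad2l2, a subunit of DNA polymerase zeta whose gene lies 17 bases away on the other strand, rose by 0.76 ± 0.15, with 19.3 to 19.7 CPM in knockouts and 9.66 to 14.2 CPM in wild types. The lysosomal thioesterase gene Ppt1 rose by 0.61 ± 0.13, and its gene overlaps Cap1 on the other strand, which was at 26.2 CPM in knockouts and 25.4 CPM in wild types. The calls of Fbxo6, Mad2l2 and Ppt1 were lost without any of 4, 4 and 5 libraries, with adjusted p up to 0.100, 0.0781 and 0.147. Zfp992, a zinc-finger gene, had 6.21, 4.10 and 4.62 CPM in knockouts and 0.398, 0, 0.261 and 0.333 CPM in wild types (4.19 ± 0.77, adjusted p = 0.00924; 0.0532 without wild type 3). Its neighbour Zfp993, below the level set for named genes, had 0.543, 0.834 and 0.586 CPM in knockouts and no count in the 4 wild-type libraries (adjusted p = 0.0215, and not called without any of 5 libraries). Zfp992 shares 99.4% of 1017 aligned bases with Zfp993 and 99.3% of 2491 with Zfp991, so reads of this family may have been shared between its members.

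Sequence identity may matter for several of these calls, and the stretches that show it are printed here because a gene and its copy differ at few bases. How well reads of the 2 were told apart was not tested. Of the 37 called genes, 8 have a near-identical copy elsewhere (at least 98% identity over at least 300 aligned bases of transcript). Each pair below is 200 bases of coding sequence from the GENCODE M21 transcripts on mm10, 5′ to 3′, with the bases that differ within the pair in capitals. Ndufs5 (chr4:123715880-123716079, minus strand, within 1 exon) and the processed pseudogene BC002163 (chr16:42955631-42955830, plus strand) differ at 2 of 318 aligned coding bases, both in this stretch.
Ndufs5: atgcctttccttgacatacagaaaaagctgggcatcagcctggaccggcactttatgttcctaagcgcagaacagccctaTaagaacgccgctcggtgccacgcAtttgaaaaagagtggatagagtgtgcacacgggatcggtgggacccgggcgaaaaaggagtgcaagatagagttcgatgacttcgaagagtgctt
BC002163: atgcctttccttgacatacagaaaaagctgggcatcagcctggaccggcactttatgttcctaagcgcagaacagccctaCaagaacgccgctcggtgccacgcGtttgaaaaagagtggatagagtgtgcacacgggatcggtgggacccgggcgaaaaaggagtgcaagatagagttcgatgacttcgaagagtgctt
Eno1 (chr4:150247619-150248117, plus strand, spliced over 3 exons) and the processed pseudogene Gm4735 (chr2:80838174-80838373, plus strand) differ at 5 of 1302 aligned coding bases, 3 of them shown.
Eno1: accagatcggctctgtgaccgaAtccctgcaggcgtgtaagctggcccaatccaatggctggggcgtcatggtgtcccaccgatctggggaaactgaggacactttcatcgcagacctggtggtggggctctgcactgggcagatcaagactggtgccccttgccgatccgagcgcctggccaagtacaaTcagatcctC
Gm4735: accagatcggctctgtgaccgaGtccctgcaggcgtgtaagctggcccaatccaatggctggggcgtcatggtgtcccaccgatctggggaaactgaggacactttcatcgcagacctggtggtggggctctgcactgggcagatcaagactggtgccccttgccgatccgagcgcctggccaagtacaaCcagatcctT
Ube2j2 (chr4:155957121-155957320, plus strand, within 1 exon) and the processed pseudogene Gm5801 (chr14:56010581-56010780, minus strand) differ at 6 of 777 aligned coding bases, 3 of them shown.
Ube2j2: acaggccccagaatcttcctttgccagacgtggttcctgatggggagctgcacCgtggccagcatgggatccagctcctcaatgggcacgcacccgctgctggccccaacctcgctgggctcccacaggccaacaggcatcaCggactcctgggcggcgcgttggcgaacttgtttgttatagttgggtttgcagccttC
Gm5801: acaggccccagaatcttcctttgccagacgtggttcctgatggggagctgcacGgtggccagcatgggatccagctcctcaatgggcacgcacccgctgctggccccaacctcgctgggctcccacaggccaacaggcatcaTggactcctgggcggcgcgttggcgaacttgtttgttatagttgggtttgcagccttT

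Ndufs5, an accessory subunit of respiratory complex I, had 33.0, 37.9 and 37.1 CPM in knockouts and 81.9, 59.7, 113.3 and 82.9 CPM in wild types (-1.23 ± 0.19, adjusted p = 0.000708). Its copy BC002163, named for this reason alone and after its values were seen, had 96.0, 104.2 and 109.4 CPM in knockouts and 2.86, 44.1, 4.08 and 5.92 CPM in wild types. The copy was thus high in all 3 knockouts, low in 3 wild types and in between in wild type 2, the wild type with the fewest counts on Ndufs5, and it was not called (2.91 ± 1.04, adjusted p = 0.309). Summed, the pair was at 139.2 ± 9.12 CPM in knockouts and 98.7 ± 14.9 CPM in wild types (SD, n = 3 and 4), a log2 ratio of 0.50, so that the direction of the sum is the opposite of that of Ndufs5. The value of Ndufs5 is uncertain for this reason.

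The enolase genes had copies that were higher in knockouts as well. Eno1, the widely expressed glycolytic enolase, lies 15.9 Mb from Trim63 and had 51.2, 46.8 and 48.1 CPM in knockouts and 67.1, 75.7, 80.3 and 81.2 CPM in wild types (-0.64 ± 0.16, adjusted p = 0.0736, not called). Eno1b, an intron-poor copy on chromosome 18 with 99.5% identity to Eno1 over 1736 bases, had 16.5, 17.1 and 16.5 CPM in knockouts and 1.83, 0.840, 1.22 and 1.08 CPM in wild types (3.71 ± 0.67, adjusted p = 0.0101). Gm4735 had 3.34, 2.64 and 3.22 CPM in knockouts and 1.11, 1.26, 0.695 and 1.00 CPM in wild types (1.59 ± 0.30, adjusted p = 0.00853). Both copies were higher in every knockout library than in any wild-type library. The 3 loci together were at 68.5 ± 2.33 CPM in knockouts and 78.3 ± 6.03 CPM in wild types (SD, n = 3 and 4), a log2 ratio of -0.19.

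Gm5801, the copy of the ubiquitin-conjugating enzyme gene Ube2j2, had 3.18, 3.75 and 3.88 CPM in knockouts and 0.477, 0.420, 0.868 and 0.917 CPM in wild types (2.40 ± 0.43, adjusted p = 0.00508). Ube2j2 itself, 21.6 Mb from Trim63, was at 39.3 to 44.6 CPM in knockouts and 35.1 to 42.6 CPM in wild types (0.09 ± 0.12, not called), and the log2 ratio of the sum was 0.18. Thus 3 of the 15 genes called outside the window, namely Eno1b, Gm4735 and Gm5801, are near-identical to genes inside it. For Hdac1 and Hmgn2 the copies took few reads: summed with Gm10093 of chromosome 17 the log2 ratio of Hdac1 was -0.89, and summed with Gm10282 that of Hmgn2 was -1.19. How reads that match 2 loci were counted was not given in the sources used here, and the part of mapping in these calls was not tested.

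Away from chromosome 4, 6 of the called genes fell, among them Mybph, Actc1, Uchl1 and Gamt. Mybph (chromosome 1, 134193448 to 134201232), myosin-binding protein H of the thick filament, had 16.0, 10.4 and 18.3 CPM in knockouts and 46.1, 55.7, 43.5 and 56.9 CPM in wild types (-1.76 ± 0.27, adjusted p = 0.00107). The groups were far apart, and the call held in each fit that left out 1 library. Adora1, which overlaps Mybph on the other strand, was at 0.713 CPM in knockouts and 1.64 CPM in wild types. Actc1 (chromosome 2, 114047282 to 114053548), the cardiac actin of developing and regenerating skeletal muscle, had 32.0, 55.0 and 33.7 CPM in knockouts and 95.1, 209.3, 137.9 and 104.5 CPM in wild types (-1.76 ± 0.34, adjusted p = 0.0152). Wild type 2 was the highest, and without it the value was -1.48 and not called, nor was it called without wild type 3 (-1.76), knockout 1 (-1.62) or knockout 3 (-1.65), with adjusted p up to 0.108. Uchl1 (chromosome 5), a deubiquitinating enzyme abundant in neurons, had 6.28, 3.82 and 4.69 CPM in knockouts and 12.3, 17.0, 23.4 and 23.3 CPM in wild types (-1.95 ± 0.37, adjusted p = 0.0125). It was not called without wild type 3 (-1.84), knockout 2 (-1.79) or knockout 3 (-1.92), with adjusted p up to 0.128. Gamt, the last enzyme of creatine synthesis, fell by 0.84 ± 0.19 (7.14, 6.95 and 7.18 CPM in knockouts and 10.3, 13.4, 11.6 and 15.6 CPM in wild types), close to the threshold (adjusted p = 0.0489) and called in 1 of the 7 fits without 1 library.

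Mthfd2, Slc38a2 and Slc25a30, named one by one here and not as a group, rose. Mthfd2 (chromosome 6, 83305691 to 83325908), the mitochondrial folate enzyme that ATF4 is known to induce, had 13.9, 18.6 and 11.9 CPM in knockouts and 5.33, 6.72, 5.73 and 8.42 CPM in wild types (1.18 ± 0.19, adjusted p = 0.00129), and it was called in every fit that left out 1 library. Slc38a2, a sodium-coupled transporter of small neutral amino acids, had 172.5, 207.6 and 196.2 CPM in knockouts and 96.2, 100.3, 86.2 and 159.4 CPM in wild types (0.80 ± 0.16, adjusted p = 0.0125). Wild type 4 came near the knockouts, and the call was lost without any of 5 libraries with values of 0.69 to 0.78 and adjusted p up to 0.100. Slc25a30, a mitochondrial carrier, had 18.6, 30.9 and 32.6 CPM in knockouts and 12.4, 11.9, 8.34 and 13.5 CPM in wild types (1.25 ± 0.25, adjusted p = 0.0125), and was lost without wild type 3, knockout 2 or knockout 3 (1.11, 1.16 and 1.1).

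The other genes called outside the window have roles in transcription, in cell signalling and in myeloid cells. Ell2, an elongation factor of RNA polymerase II, had 25.6, 42.5 and 24.0 CPM in knockouts and 17.0, 19.3, 15.2 and 19.5 CPM in wild types (0.79 ± 0.15, adjusted p = 0.00853). Knockout 2 stood above the rest, and without it the value was 0.49, with an adjusted p of 0.262; it was 0.72 and not called without wild type 3. Chd6, a chromatin remodeller, rose by 0.86 ± 0.17 and Rap1gds1, an exchange factor for small GTPases, by 0.38 ± 0.09. Ndrg4 fell by 1.35 ± 0.28, with 1.76 to 2.56 CPM in knockouts and 3.67 to 7.67 CPM in wild types. Clec4a3, a lectin receptor of myeloid cells at very low level, had 0.465, 0.556 and 0.147 CPM in knockouts and 1.43, 2.31, 1.91 and 1.00 CPM in wild types (-2.05 ± 0.41, adjusted p = 0.0125). Chd6, Rap1gds1, Ndrg4 and Clec4a3 were called in 4, 1, 3 and 4 of the 7 fits without 1 library.

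Some genes that differed widely missed the threshold. Rab6b (chromosome 9), a small GTPase of Golgi transport, had 1.01, 0.487 and 0.952 CPM in knockouts and 11.3, 11.8, 9.99 and 11.3 CPM in wild types (-3.76 ± 0.87, adjusted p = 0.0654). Of the chromosome 4 window, the retinol-binding protein gene Rbp7 had 6.67, 11.3 and 7.40 CPM in knockouts and 1.19, 1.37, 1.91 and 1.25 CPM in wild types (2.56 ± 0.57, adjusted p = 0.0506), and Fbxo44, 660 bases from Fbxo6, had 2.40, 1.11 and 0.952 CPM in knockouts and 7.00, 7.56, 7.21 and 7.42 CPM in wild types (-2.30 ± 0.54, adjusted p = 0.0654). These 3 genes were picked after their values were seen, and in none of them did the groups overlap.

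The called genes were then set beside the genotype difference on the other diet and in the other sex, in which no library is shared with this comparison. Of the 22 genes called near Trim63, 22, 21 and 21 had the same direction in males on chow, females on high fat and females on chow, and 17, 6 and 6 were called there in that direction. These counts include Trim63 itself, the deleted gene, which was called lower in each of the 3 comparisons. Of the 15 genes called elsewhere, 12, 9 and 11 had the same direction, and 8, 0 and 0 were called. The 15 include Eno1b, Gm4735 and Gm5801, near-identical to genes inside the window. Eno1b and Gm4735 are among the 8 called in males on chow. Among all tested genes outside the window, 55.4%, 58.3% and 56.1% had the same direction. No such share was taken for the genes inside it. Counts of all calls were 974 in males on chow (6.95%), 10 in females on high fat (0.0713%) and 13 in females on chow (0.0927%). The median size of the 22 near genes was 1.22 log2 units here and, in the direction found here, 0.97, 0.74 and 0.68 in those 3 comparisons. For the 15 genes elsewhere it was 1.35 here and 0.94, 0.15 and 0.19 there. Each of these genes was chosen by its size in males on high fat, so a smaller size elsewhere is a description only.

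**Figure D3:**
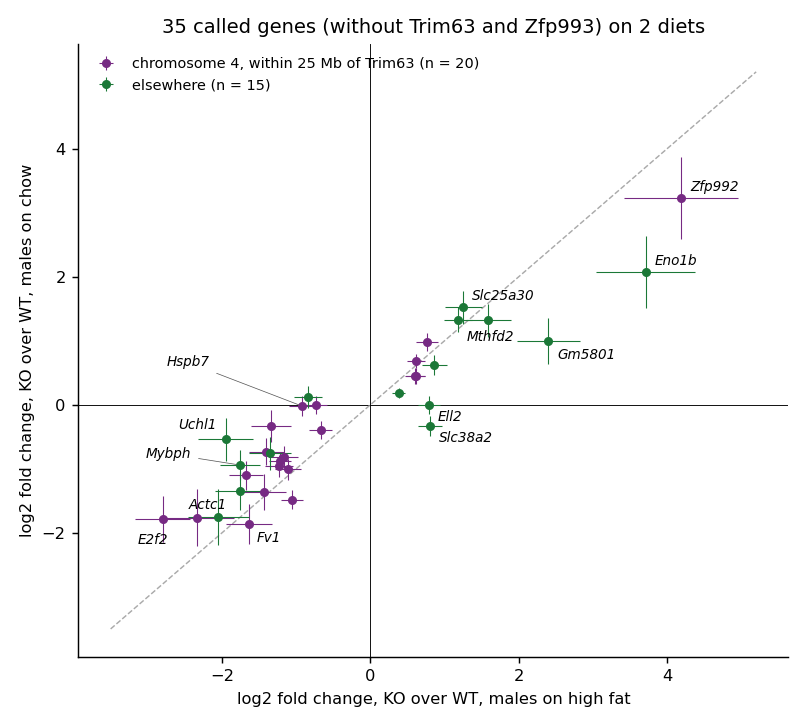
Log2 fold change of KO over WT on high fat (x) and on chow (y) in males for 35 called genes, with standard errors as bars; purple genes lie within 25 Mb of Trim63, green ones elsewhere, and the dashed line marks equal values. Eno1b and Zfp992 lie at the upper right, while Ell2 (-0.00) and Hspb7 (-0.02) lie near 0 on chow and Slc38a2 lies at -0.33 there; Trim63 and Zfp993 are left out for scale and for want of a fixed fold.

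The diet was tested directly as the difference of the 2 genotype effects in males. By edgeR 0 of 14024 genes were called (0%), with 1456 at an unadjusted p under 0.05, and DESeq2 called 35. Without wild type 4, knockout 1 or knockout 2 edgeR called 10, 1 and 12 genes. Among the genes called on high fat, Slc38a2 differed most between the diets by adjusted p, with 0.80 ± 0.16 on high fat and -0.33 ± 0.15 on chow (difference 1.13 ± 0.22, adjusted p = 0.0763). Ell2 was at 0.79 ± 0.15 and -0.00 ± 0.14 (adjusted p of the difference 0.161), Hspb7 at -0.92 ± 0.18 and -0.02 ± 0.16 (0.175), Gamt at -0.84 ± 0.19 and 0.12 ± 0.17 (0.186) and Acot7 at -0.73 ± 0.15 and -0.01 ± 0.14 (0.218), high fat first in each pair. None of these differences passed the threshold, while Mthfd2 was called on both diets (1.33 ± 0.19 on chow, adjusted p = 0.000257), as were Mybph (-0.94 ± 0.23, adjusted p = 0.0143), Actc1 (-1.35 ± 0.30, adjusted p = 0.0105) and Slc25a30 (1.52 ± 0.26, adjusted p = 0.00112).

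Between the sexes on high fat 0 genes were called by edgeR for the difference of the genotype effects (0%), with 752 at an unadjusted p under 0.05, and 2 by DESeq2. Mybph was at -1.76 ± 0.27 in males and 0.13 ± 0.24 in females (difference -1.89 ± 0.35, adjusted p = 0.0905), and Clec4a3 at -2.05 ± 0.41 in males and 0.55 ± 0.37 in females (adjusted p of the difference 0.238). Actc1 was at -1.76 ± 0.34 in males and 0.20 ± 0.32 in females (0.472). Hspb7 was called in both, at -0.98 ± 0.18 in females (adjusted p = 0.0127).

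Gene lists were read next, 24 of function and 14 of cell types and sex, by their counts and their median log2 fold change beside the median of -0.00 over all genes. Members of a list come from the same libraries and are not independent of each other, so their counts are descriptions. The shares to set beside the edgeR counts are 0.107% of all genes called higher and 0.157% called lower. At an unadjusted p under 0.05 they are 4.72% higher and 5.16% lower. These shares are of the main fit, and none by direction are given for DESeq2 or the other fits. Ubiquitin ligases and atrophy genes, the class of MuRF1, came first. Of 29 tested, Trim63 fell and 28 were not called by edgeR, DESeq2 called 2 lower, and the median was 0.03. The other MuRF family members were not called, with Trim55 (MuRF2) at 53.7 ± 2.47 CPM in knockouts and 53.4 ± 3.94 CPM in wild types (0.01 ± 0.10) and Trim54 (MuRF3) at 189.9 ± 11.1 CPM and 200.4 ± 31.8 CPM (-0.08 ± 0.13). Atrogin-1 (Fbxo32), the ligase that usually rises with MuRF1 in wasting, had 581.2, 498.5 and 311.4 CPM in knockouts and 358.2, 390.1, 381.2 and 532.0 CPM in wild types (0.16 ± 0.17), with groups that overlapped widely. Without knockout 1 it was -0.03, and Trim54 was 0.03 without wild type 3. Trim55 took a value of -0.01, -0.02 and -0.01 without wild type 1, wild type 2 and knockout 1. Klhl40, which stabilises thin-filament proteins, was at 102.3 to 107.0 CPM in knockouts and 121.4 to 150.9 CPM in wild types (-0.38 ± 0.10, adjusted p = 0.125), Trim62 of the chromosome 4 window at -1.18 ± 0.38, the cullin gene Cul7 at -0.51 ± 0.20 and the HECT ligase gene Wwp1 at 0.27 ± 0.13, none of them called. Of 34 proteasome subunit genes 0 were called by edgeR, 1 was lower at an unadjusted p under 0.05 (Psma5, -0.29 ± 0.13) and 0 were called by DESeq2, although 32 of the 34 values were below 0 (median -0.12).

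Among 27 sarcomere and stress-sensing genes, Mybph and Hspb7 fell (0.157% of all genes were called lower). At an unadjusted p under 0.05, 7 were lower (5.16% of all genes were), and the median was -0.08. Outside the window 1 of 25 was called, where 0.111% of all genes outside it were. The M-band gene Myom3, 1.43 Mb from Trim63, had 59.6, 42.3 and 56.8 CPM in knockouts and 99.0, 101.6, 103.4 and 54.3 CPM in wild types (-0.76 ± 0.23, adjusted p = 0.188), wild type 4 lying among the knockouts. The titin-binding stretch sensor Ankrd1 was at 5.56 to 12.2 CPM in knockouts and 13.0 to 32.3 CPM in wild types (-1.27 ± 0.41), the actin nucleator Lmod3 at -0.33 ± 0.11 and the small heat-shock gene Hspb1 at -0.38 ± 0.17. Of 12 tested developmental and cardiac-type muscle genes Actc1 fell, 11 values were below 0 and the median was -0.27. Embryonic myosin Myh3 had 2.95, 2.92 and 4.83 CPM in knockouts and 8.12, 22.0, 4.26 and 8.00 CPM in wild types (-1.54 ± 0.49, adjusted p = 0.236).

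Slow-fibre genes had a median of -0.32 over 18 genes, with 16 values below 0 and 0 called by edgeR, 1 at an unadjusted p under 0.05 and 1 by DESeq2. Sarcolipin (Sln), an inhibitor of the calcium pump, had 1.63, 1.74 and 0.806 CPM in knockouts and 5.49, 14.9, 4.95 and 4.5 CPM in wild types (-2.39 ± 0.57, adjusted p = 0.0739). The slow myosin gene Myh7 had 212.6, 246.2 and 197.8 CPM in knockouts and 392.5, 559.3, 299.8 and 173.4 CPM in wild types (-0.70 ± 0.42), and slow troponin I (Tnni1) 35 to 51.7 CPM and 30.8 to 101.5 CPM (-0.62 ± 0.40). Wild type 4 was the lowest of the 7 libraries for both. The list summed to 3449, 3375 and 3908 CPM in knockouts and 4880, 4571, 4929 and 2623 CPM in wild types, and without wild type 4 its median was -0.55, with 6 genes at an unadjusted p under 0.05 and 1 called. Leaving out wild type 1 moved the median the other way, to -0.18. The 17 fast-fibre genes had a median of -0.12 and 0 calls by edgeR and by DESeq2, with 2 lower at an unadjusted p under 0.05.

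Of 23 denervation and neuromuscular junction genes Uchl1 fell and the median was -0.17. The receptor kinase gene Musk was at 21.0 to 36.3 CPM in knockouts and 12.7 to 19.3 CPM in wild types (0.62 ± 0.23, adjusted p = 0.319), the adhesion gene Ncam1 at 4.10 to 5.59 CPM and 5.57 to 8.00 CPM (-0.59 ± 0.25), and acetylcholinesterase (Ache) at 22.3 to 29.1 CPM and 29.2 to 38.9 CPM (-0.33 ± 0.18). None of the 3 was called.

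Matrix genes had the lowest median of the 24 lists of function, -0.70 over 35 genes, with 33 values below 0. By edgeR 0 of the 35 were called, 24 were lower at an unadjusted p under 0.05 (5.16% of all genes were), and 18 had every knockout library below every wild-type library (5.31% of all genes did). DESeq2 called 5 lower, and edgeR called 7 lower when fitted to the 7 libraries alone and 3 lower without 3 wild-type libraries of other groups. Each of those fits also called more genes in all than the main fit, and their shares of lower calls are not given here. Leaving out 1 library gave 0 calls each time, with 13 genes at an unadjusted p under 0.05 without knockout 3, 16 without knockout 2 and 17 to 27 without each of the others, and medians of -0.60 to -0.79. Summed, the list was at 2177, 1682 and 1502 CPM in knockouts and 2897, 3278, 2313 and 2573 CPM in wild types, groups that did not overlap. Collagen V (Col5a1) had 26.4, 17.7 and 18.0 CPM in knockouts and 46.2, 58.4, 32.4 and 42.8 CPM in wild types (-1.12 ± 0.26, adjusted p = 0.0654). The fibrillar collagens Col3a1 (-1.44 ± 0.42) and Col1a1 (-1.27 ± 0.48), collagen XIV (Col14a1, -1.07 ± 0.29), the gelatinase Mmp2 (-0.90 ± 0.25) and the cross-linking enzyme gene Loxl1 (-0.66 ± 0.17) lay in the same direction without a call. In males on chow 22 of the 35 were called lower (median -1.07), where 745 of all 14024 genes were (5.31%), and in females on high fat the median was -0.16.

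Markers of the cells that make or live in the matrix were lower in sum. The progenitor markers include Col1a1 and Col3a1, named above with the matrix genes, so these lists are not independent of each other. The 14 markers of fibro-adipogenic progenitors had a median of -0.49, all 14 below 0, with 0 called by edgeR, 10 lower at an unadjusted p under 0.05 (5.16% of all genes) and 1 called lower by DESeq2. They summed to 2009, 1732 and 1513 CPM in knockouts and 2480, 2610, 2517 and 2350 CPM in wild types, and none had 0 counts throughout. The microfibril gene Mfap5 had 13.0, 11.0 and 9.74 CPM in knockouts and 20.6, 20.1, 19.2 and 17.8 CPM in wild types (-0.79 ± 0.20, adjusted p = 0.0736), with Clec3b at -0.57 ± 0.17 and Smoc2 at -0.46 ± 0.14. The 15 macrophage markers had a median of -0.52, with 0 called by edgeR and by DESeq2 and 8 lower at an unadjusted p under 0.05 (5.16% of all genes), and summed to 182.3, 160.9 and 136.4 CPM in knockouts and 240.2, 234.8, 233.2 and 214.7 CPM in wild types. Lysozyme (Lyz2) had 61.8, 57.7 and 44.5 CPM in knockouts and 98, 86.2, 89.1 and 84.0 CPM in wild types (-0.71 ± 0.24), cathepsin S (Ctss) was at -0.72 ± 0.23, the Fc receptor chain Fcer1g at -0.63 ± 0.22 and the complement gene C1qa at -0.75 ± 0.24. C1qa lies 2.57 Mb from Trim63, and without the 3 markers in the window the median of the other 12 was -0.45. In bulk muscle fewer cells of a type and less RNA per cell cannot be told apart, and the part of these cells in the matrix values was not tested.

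**Figure D4:**
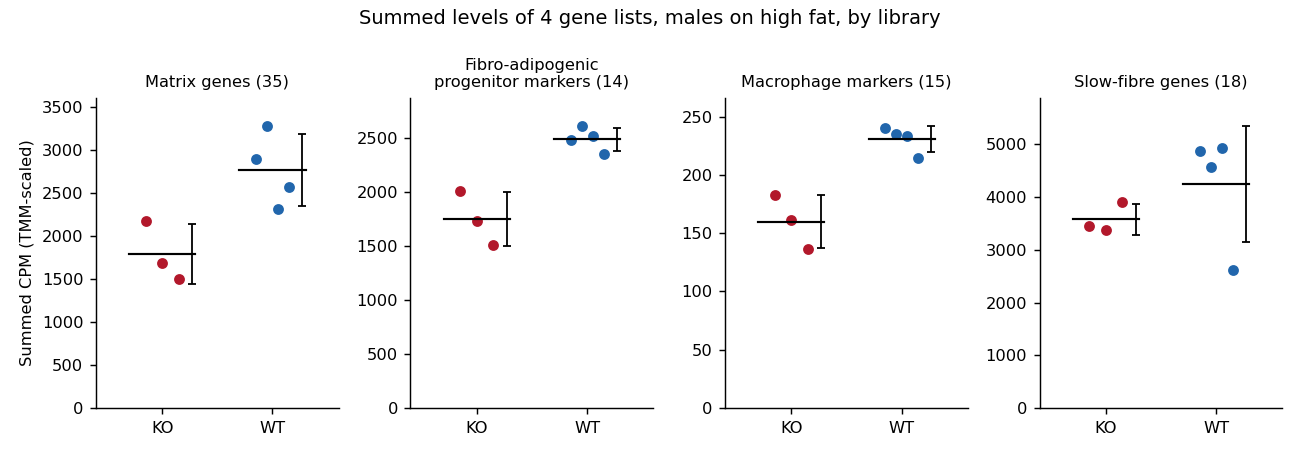
Summed CPM (TMM-scaled, linear axis from 0) of 4 gene lists in the 3 KO (red) and 4 WT (blue) libraries of males on high fat, with the number of tested genes in brackets; points are libraries, the horizontal line is the mean and the whisker 1 SD. Groups do not overlap for matrix, fibro-adipogenic progenitor and macrophage lists, and the slow-fibre list overlaps because one WT library is at 2623 CPM.

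For the other cell types, medians were -0.08 for 11 endothelial, -0.13 for 8 pericyte and smooth muscle, -0.25 for 10 adipocyte, 0.06 for 9 Schwann cell and -0.31 for 9 tendon markers, and by edgeR and DESeq2 0 of these were called, with 1 endothelial and 1 Schwann cell marker higher at an unadjusted p under 0.05. Of 10 satellite cell markers 0 were called by both tools; the muscle stem cell gene Pax7 was at 1.16 to 3.15 CPM in knockouts and 2.43 to 4.10 CPM in wild types (-0.75 ± 0.29), and Myod1 at 9.94 to 28.9 CPM and 10.3 to 18.3 CPM (0.61 ± 0.23). The 6 erythroid markers had a median of -0.51, all 6 below 0 and 0 called or at an unadjusted p under 0.05 by edgeR, with summed levels of 223.2 to 434.9 CPM in knockouts and 233.6 to 701.5 CPM in wild types. Keratinocyte markers summed to 4.73 to 5.77 CPM in knockouts and 5.01 to 8.30 CPM in wild types, with 4 of the 10 at 0 in all 7 libraries. Of the lymphocyte markers 2 of 10 passed the count filter, with a median of -0.54, and of the neutrophil markers 4 of 6, with a median of 1.37, which was -0.23 for the 1 marker tested with the 7 libraries alone. The 9 tested muscle fibre markers had a median of -0.14.

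Insulin and IGF signalling genes had mostly positive values without a call. Of 26, 23 had values above 0 and the median was 0.07, with 4 higher at an unadjusted p under 0.05 and 0 called by edgeR or DESeq2. The factor gene Foxo1 had 21.8, 49.2 and 23.5 CPM in knockouts and 19.4, 20.0, 18.3 and 16.1 CPM in wild types (0.78 ± 0.21, adjusted p = 0.118), knockout 2 standing apart. The kinase gene Mtor, in the window, was at 0.31 ± 0.12 and Tsc1, an inhibitor of mTOR signalling, at 0.23 ± 0.11. The insulin-responsive glucose transporter gene Slc2a4 was at 567.6 ± 12.9 CPM in knockouts and 550.3 ± 29.5 CPM in wild types (0.04 ± 0.10).

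Metabolic lists sat close to 0. The medians were -0.04 for 24 fasting and PPAR target genes, -0.08 for 18 beta-oxidation genes, -0.03 for 22 genes of fatty acid synthesis and lipid storage and -0.01 for 25 of glycolysis and glycogen, with 0 called by edgeR in each and 1, 0, 1 and 3 at an unadjusted p under 0.05. DESeq2 called 1, of glycolysis and glycogen. Ppp1r3c, which targets phosphatase to glycogen, had 650.3, 588.0 and 667.6 CPM in knockouts and 329.4, 389.4, 372.1 and 496.1 CPM in wild types (0.68 ± 0.18, adjusted p = 0.11), and Ugp2, which makes UDP-glucose, was at 0.40 ± 0.17. In both, all 3 knockout libraries were above all 4 wild-type libraries. Of 28 mitochondrial genes Ndufs5 was the 1 call, with its copy as above, and the median was -0.07. The coactivator Ppargc1a had 39.3, 85.0 and 34.2 CPM in knockouts and 33.2, 36.2, 21.5 and 35.4 CPM in wild types (0.75 ± 0.25, adjusted p = 0.264), again with knockout 2 apart.

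Stress and hormone lists held few calls. Of 21 ATF4 and amino acid stress genes and 19 one-carbon and polyamine genes, Mthfd2, a member of both, rose, and the medians were -0.07 and 0.03. The serine synthesis gene Phgdh was at -0.86 ± 0.38 and the polyamine enzyme gene Odc1 at 0.49 ± 0.20. Of 22 glucocorticoid and FoxO targets 0 were called by edgeR, 3 were higher and 1 lower at an unadjusted p under 0.05, DESeq2 called 1 higher, and the median was 0.11, beside 0.65 with 10 called higher in males on chow, where 229 of all 14024 genes were (1.63%). Without knockout 2 the median on high fat was -0.15, so its sign rested on that library. Zbtb16 had 48.4, 64.6 and 58.7 CPM in knockouts and 32.9, 37.6, 30.0 and 31.8 CPM in wild types (0.79 ± 0.22, adjusted p = 0.135), the steroid receptor chaperone Fkbp5 39.1, 56.3 and 41.8 CPM and 24.0, 25.3, 27.6 and 26.8 CPM (0.82 ± 0.28), and Sesn1 was at -0.33 ± 0.12. The 21 heat-shock and chaperone genes had a median of 0.11, with Hspb7 called lower and 5 higher and 3 lower at an unadjusted p under 0.05, among them Dnaja1 (0.40 ± 0.14) and Hspa8 (0.30 ± 0.11). Of 24 autophagy and lysosome genes Ppt1 rose (median 0.00). Calcium handling (22 genes), antioxidant (21), clock (20), interferon (25) and myokine genes (19) had medians of -0.02, -0.02, 0.03, -0.27 and -0.01 and 0 calls by edgeR, with 2, 3, 3, 4 and 7 genes at an unadjusted p under 0.05, and DESeq2 called 1 calcium handling gene.

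**Figure D5:**
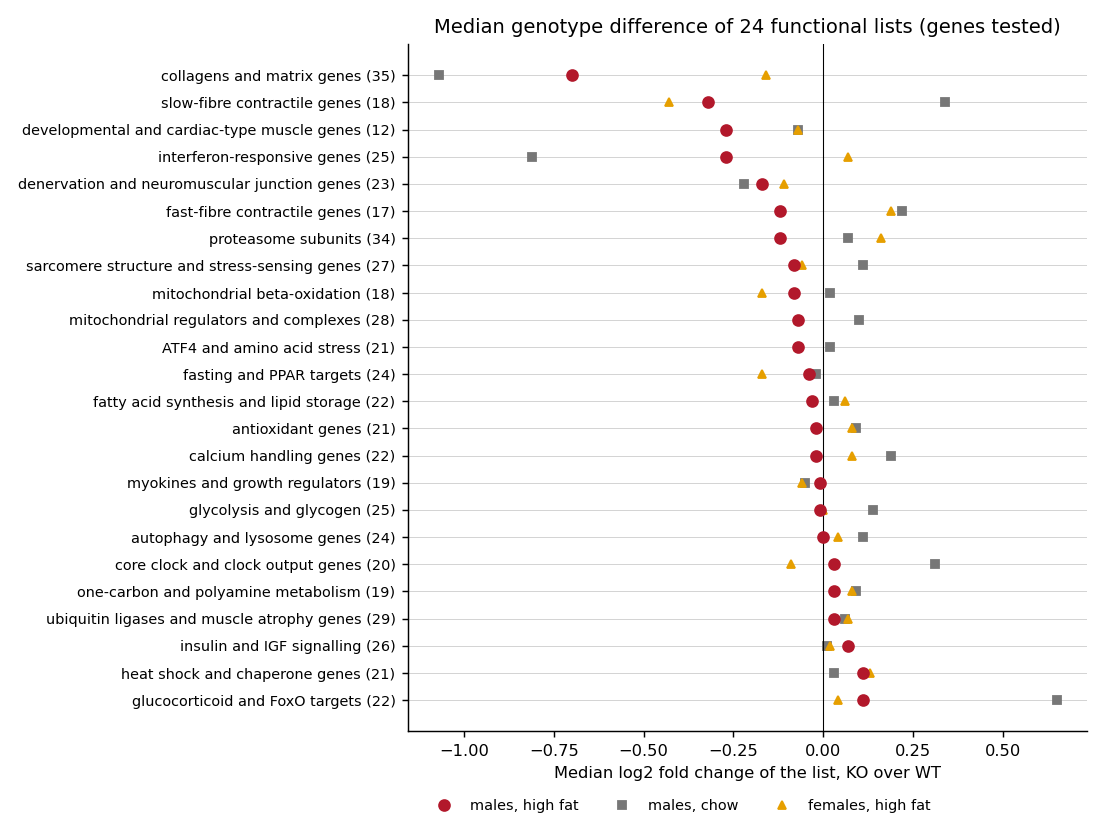
Median log2 fold change of KO over WT for the tested genes of 24 lists of function (number in brackets) in males on high fat (red circles), males on chow (grey squares) and females on high fat (orange triangles). Matrix genes are the lowest on high fat in males at -0.70, beside -1.07 on chow and -0.16 in females. The glucocorticoid and FoxO list is at 0.11 on high fat (-0.15 without knockout 2, not drawn) and 0.65 on chow in males.

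Among the myokine genes, myostatin (Mstn), an inhibitor of muscle growth, had 113.3, 112.6 and 104.0 CPM in knockouts and 60.6, 74.3, 58.9 and 97.3 CPM in wild types (0.60 ± 0.16, adjusted p = 0.112). Its relative Gdf11 was at 21.8 to 28.0 CPM in knockouts and 16.8 to 20.3 CPM in wild types (0.49 ± 0.17). Both had every knockout above every wild type and neither was called. Fndc5, the irisin precursor, which lies 5.17 Mb from Trim63, was at -0.58 ± 0.18 (adjusted p = 0.227). The exercise-responsive nuclear receptor Nr4a3 had 10.7, 38.2 and 3.44 CPM in knockouts and 2.94, 3.47, 4.17 and 10.8 CPM in wild types (1.71 ± 0.51), and the clock output gene Nfil3 27.6, 61.5 and 28.5 CPM and 14.0, 15.0, 17.5 and 30.0 CPM (1.03 ± 0.32). Knockout 2 and wild type 4 were the highest of their groups for both. The interferon-induced gene Rsad2 was at 3.57 to 6.37 CPM in knockouts and 2.08 to 2.84 CPM in wild types (0.95 ± 0.27, adjusted p = 0.133), while its list had a median of -0.27.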

How the data were processed

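Gastrocnemius RNA (integrity number over 8) was selected for polyA and sequenced as stranded paired-end libraries, per the labels' protocols. The deposited files hold raw counts per gene, and the submitters' processing notes name bcl2fastq, featureCounts and mm10. Which aligner, annotation and strand setting were used was not given in the sources used here. Gene positions and copies were read from GENCODE M21.

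Of the 31 libraries 30 were grouped by the animal number in their description, and 1 library, whose number is in no title, was left out. Genes were kept by the filterByExpr function of edgeR (minimum count 10), scaled by TMM and fitted with the robust quasi-likelihood model of edgeR 4.0.16 in R 4.3.3 over the 8 groups, which share 1 estimate of the spread. The common dispersion was 0.0202, a variation of 14.2% between animals. P-values were adjusted by Benjamini-Hochberg over all 14024 genes. Standard errors were derived from the log2 fold change and its F statistic. The fits were tested on simulated counts. No 2 libraries of a group agreed within sampling noise, with a chi-square per gene of at least 8.33.

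Members and lists were chosen with earlier results of these data known. The text names Trim63, up to 15 called genes with the largest increase and 15 with the largest decrease, up to 6 genes near Trim63 and up to 4 genes of each list with the smallest p. The 8 called genes outside this rule, 3 genes that missed the threshold, and some genes of general interest were named after their values were seen. Some genes are counted but not reported here by name. Alternatives were RLE scaling, no filter, a replicate block, grouping by the records' own titles, the ungrouped library added to the knockouts, the 7 libraries alone, mitochondrial genes or genes near Trim63 left out, each library left out, and DESeq2 1.42.0. Another left out 3 wild-type libraries of other groups with Trim63 at 50 to 150 CPM, and was chosen after seeing the data.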

Additional observations from a re-analysis of the deposited data

Results flagged for a closer look

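For 137 values of genes and summed lists the groups of 4 were examined for a library far from the other 3, by Dixon's ratio at its 95% critical value, and 9 exceeded it. All 9 are in male wild types on high fat, the only group of 4 in this comparison, so their place says nothing about that group. Chance gives about 1 in 20. The groups of 3 knockouts were not examined. Wild type 2 was apart for the calcium pump inhibitor Sln (14.9 CPM), the ligase gene Trim62 (2.00 CPM) and the gelatinase Mmp2 (82.5 CPM), in each case as the highest. Wild type 3 was the lowest for the restriction gene Fv1 (2.43 CPM). Wild type 4 was the highest for the nuclear receptor Nr4a3 (10.8 CPM) and for the summed ubiquitin ligase and atrophy list (6033 CPM) and ATF4 list (1101 CPM). It was the lowest for the M-band gene Myom3 (54.3 CPM) and for the summed slow-fibre list (2623 CPM).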

How the results depend on the processing

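The count of 37 called genes became 42 with RLE scaling, 42 with no filter, 41 without mitochondrial genes, 32 with the ungrouped library added to the knockouts, 64 with the 7 libraries alone (27 shared with the 37), 98 with DESeq2 (36 shared), 63 without the 3 wild-type libraries of other groups (37 shared), 13 without genes near Trim63, and 0 with libraries grouped by their own titles (1034 at an unadjusted p under 0.05), and leaving out 1 library gave 16 to 68. The cause of these shifts was not tested, other than that leaving out the genes near Trim63 took 22 of the 37 calls away. The p-values of the remaining genes were unchanged there and were adjusted again. With the replicate block 62 genes were called. The numbers were not taken as a pairing, since deviations of same-numbered libraries correlated at 0.102, -0.0311 and 0.166. Trim63 was -2.68 (adjusted p = 0.758) under the records' own titles and -3.09 (adjusted p = 0.191) with the ungrouped library added, both not called by edgeR, and -8.24 to -7.32 with 1 library left out. The 0 calls for the difference between diets became 35 with DESeq2 and 0 to 12 with 1 library left out; the 0 calls between sexes became 2 with DESeq2, 2 without the 3 libraries and 0 with 1 left out. Of 605 alternative values of the called genes 452 kept their call, 153 lost it and 0 reversed. Reversed values were confined to uncalled genes: Trim55 was -0.00 with the replicate block, and with 1 library left out Trim55 spanned -0.02 to 0.04, Trim54 -0.13 to 0.03 and Fbxo32 -0.03 to 0.38. Depth sets a floor of 0.201 to 0.226 CPM in knockouts and 0.242 to 0.321 CPM in wild types, for counting error only, so Clec4a3, E2f2 and Zfp993 rest on few reads.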

Other observations

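A further library sits in a record titled as a male knockout on high fat, but its own animal number stands in no title, and it entered no comparison. It held 10485009 counts, with 1123 of Trim63 (107.1 unscaled CPM) and 51.7 CPM of Ddx3y. The 3 knockout libraries had 14, 7 and 25 counts of Trim63 (1.05, 0.469 and 1.80 unscaled CPM) and the 4 wild-type libraries 225.0 to 253.6 unscaled CPM. Trim63 lay between these also in 3 grouped wild-type libraries of other groups, at 108.5 CPM in a male on chow, 130.1 CPM in a female on chow and 119.2 CPM in a female on high fat.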
